A study of Mus musculus with 22 samples.

Results

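Slpi, Tox, Tox2, Parm1, Serpinf1, Lmo2, Fscn1 and Plpp1 are 8 genes whose transcripts were higher in class-switched (IgG) than in IgM germinal center B cells of these libraries. They are 8 of the 14407 genes in the transcript count table, and all 8 passed the filter on low counts in every comparison. The IgG against IgM difference chose them, so it is described without a test. The tests concern what did not choose them: the IgG subclass, the cell state, the size of the clone and the immunizing antigen.

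Class switching replaces the constant region of the antibody heavy chain, IgM, by another such as IgG1, IgG2b, IgG2c or IgG3, while the antigen-binding part is kept. Germinal centers form in lymphoid tissue after immunization, and their B cells mutate the antibody genes. In the light zone B cells take up antigen and receive help from T cells, and Cd83 is a marker of that zone. In the dark zone they divide, and Cxcr4, a chemokine receptor, is its marker. The 8 genes belong to no single pathway. Slpi encodes a secreted inhibitor of serine proteases such as neutrophil elastase, and Serpinf1 encodes PEDF, a secreted member of the serpin family that does not inhibit proteases. Tox and Tox2 encode nuclear proteins with an HMG-box DNA-binding domain, known best from T cells. Lmo2 encodes a LIM-domain adaptor of transcription factor complexes and is used in human pathology as a marker of germinal center B cells. Fscn1 encodes fascin, which bundles actin filaments, Plpp1 encodes a phosphatase of lipid phosphates, and Parm1 encodes a mucin-like membrane protein.

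Germinal center B cells came from the spleens of male C57BL/6 mice, labelled as 8 weeks old, after intraperitoneal immunization with alum and lipopolysaccharide in all groups. The NP 1 and NP 2 libraries hold NP-binding germinal center B cells, sorted on day 13 after NP-KLH, a hapten coupled to a carrier protein. The OVA 1 library holds all germinal center B cells after ovalbumin, with no gate on antigen binding, and the labels give no day for its sort. Each was measured by droplet-based 5' single-cell RNA sequencing with a paired immunoglobulin library. The labels do not say how many mice each library holds, so the spread that p-values measure may be technical. For antigen it is the spread of levels between libraries, and otherwise that of differences between cell groups of the same library. In the state and clone size fits the IgG and IgM sums of a library entered as separate units. Residual degrees of freedom were 12 for cell state, 10 for its interaction with class and 7 for clone size.

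The libraries held 20533741, 16161435 and 21412501 unique molecular identifiers (UMIs, counts of captured transcript molecules) in NP 1, NP 2 and OVA 1. Of the cells that passed the filters, 901, 805 and 891 had an IgG heavy chain and 730, 600 and 968 an IgM heavy chain, by the constant gene of the productive heavy-chain contig with most UMIs. That constant gene also took 55.5% to 91.7% of the heavy constant UMIs in the gene table. Between 9 and 11 cell barcodes were shared by each pair of libraries. The 15 germinal center B cell markers were all detected in both classes, with a summed level of 9476 to 9722 CPM (counts scaled to the total outside the immunoglobulin genes) in IgG cells and 9656 to 9765 in IgM cells. The sums hide single markers: 4 of the 15 were called higher and 1 lower in IgG cells with edgeR, where 5.13% of all genes were called. The 13 T cell markers summed to 5.21 to 8.69 CPM in IgG cells and 6.51 to 10.4 in IgM cells, with Icos and Themis at 0 in all 6 sums. Memory or naive-like cells, with at least 3 UMIs of 7 such markers, made up 3.33%, 4.47% and 6.397% of IgG cells and 8.22%, 8.00% and 20.6% of IgM cells.

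The genes lie at chr2:164354070-164356507 (Slpi), chr4:6686353-6991557 (Tox), chr2:163203058-163324172 (Tox2), chr5:91517700-91624011 (Parm1), chr11:75410029-75422623 (Serpinf1), chr2:103957903-103981878 (Lmo2), chr5:142960355-142973189 (Fscn1) and chr13:112800777-112867894 (Plpp1) of GRCm38.p6. All are annotated as protein-coding. Annotated genes overlap 4 of them, Mir7678 at Slpi, Gm11802 at Tox, Gm38515 at Lmo2 and Mtrex at Plpp1. The sources used here do not say whether the counting used the strand, so reads of these pairs cannot be told apart. RefSeq promoter windows matched 5 of the 8 genes. The 250 bases before the start of Slpi and Parm1 are shown, because Slpi had the largest edgeR fold of IgG against IgM over the 3 libraries, although in OVA 1 alone the Parm1 fold was larger, and Parm1 differed most among the IgG subclasses. The Slpi window is chr2:164356508-164356757 on the minus strand and the Parm1 window is chr5:91517450-91517699 on the plus strand. Capitals mark a match to one of 4 motifs searched on both strands.
Slpi: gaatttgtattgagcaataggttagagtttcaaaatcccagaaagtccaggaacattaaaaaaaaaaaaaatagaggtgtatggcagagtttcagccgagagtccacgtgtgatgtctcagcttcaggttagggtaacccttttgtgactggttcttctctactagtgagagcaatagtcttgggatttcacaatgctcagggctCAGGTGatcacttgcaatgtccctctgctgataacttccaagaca
Parm1: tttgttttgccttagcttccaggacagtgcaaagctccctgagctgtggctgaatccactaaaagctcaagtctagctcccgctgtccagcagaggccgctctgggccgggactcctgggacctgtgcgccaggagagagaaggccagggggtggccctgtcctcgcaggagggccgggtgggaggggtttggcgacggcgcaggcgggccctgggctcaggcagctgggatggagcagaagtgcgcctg
The Slpi window held 1 match to CAGGTG, an E-box bound by E proteins, and none to the NF-kB type (GGGA and CC with 4 bases between), the STAT6 type (TTC and GAA with 4 bases between) or the ETS and IRF type (GGAA and GAAA with 2 bases between). The Parm1 window held a match to none of them. Among 32851 windows of the same length, CAGGTG was present in 17.2%, the NF-kB type in 17.6%, the STAT6 type in 5.85% and the ETS and IRF type in 2.30%. The windows of Serpinf1 and Fscn1 also held none. Of the 5 Tox2 windows, 3 held the NF-kB type and 1 of these also CAGGTG. The matches are descriptions of these letters only.

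In IgG cells all 8 genes were higher than in IgM cells of the same library, in each of the 3 libraries. Levels are in CPM and given for NP 1, NP 2 and OVA 1 in that order. Of all 10493 genes tested on this contrast with edgeR's quasi-likelihood test, 5.13% were called in either direction and 2.04% higher in IgG cells. The members were picked from the higher ones, so nothing is read from their share. Memory or naive-like cells moved with the class. Without them the edgeR log2 folds of IgG against IgM cells were 1.43 for Slpi, 1.12 for Tox, 0.95 for Parm1 and 0.89 for Lmo2. With them the folds were 1.52, 1.13, 1.02 and 0.74.

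Slpi stood at 107, 93.2 and 154 in IgG cells, against 35.9, 43.0 and 46.0 in IgM cells. The IgG over IgM folds were 2.996, 2.17 and 3.34, with every IgG value above every IgM value. Slpi means were 118 ± 31.7 in IgG cells and 41.6 ± 5.21 in IgM cells (SD, n = 3 libraries each). Few cells carried much of the Slpi RNA: the top 1% of IgG cells held 29.0%, 16.7% and 16.7% of its UMIs there, with up to 68 UMIs in a single NP 1 cell. The top 1% of IgM cells held 23.1%, 25.2% and 23.6% of the Slpi UMIs of that class. Such shares were not particular to Slpi: for Fscn1 they were 23.8%, 21.8% and 14.4% in IgG cells and 33.3%, 26.7% and 16.0% in IgM cells.

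After thinning each cell to 2500 UMIs, Slpi was detected in 13.5%, 14.6% and 20.9% of IgG cells and 6.86%, 7.44% and 8.03% of IgM cells. Without thinning the shares were 31.4%, 31.9% and 42.1% in IgG cells and 14.9%, 19.8% and 18.0% in IgM cells. Cells without a heavy chain and with at least 10 T cell UMIs, which should lack Slpi, gave 0 of 3, 0 of 12 and 0 of 24 thinned cells. Their median depths were 3875, 3741 and 5565 UMIs per cell, against 7412, 8987 and 8506 in IgG cells. So few cells allow a share of up to 70.8%, 26.5% and 14.2% (exact Clopper-Pearson upper bounds, counting error only).

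Slpi is also a myeloid transcript, and 17 OVA 1 cells without a heavy chain and with at least 10 myeloid UMIs held 583 CPM. The 12 measured myeloid markers summed to 0.936, 1.16 and 29.5 CPM in IgG cells and 2.21, 16.5 and 21.2 in IgM cells. The edgeR log2 fold of Slpi between the classes was 1.52, and 1.47 without cells holding at least 3 T cell, myeloid or dendritic UMIs. Most dendritic UMIs were of Flt3, at 39.8, 38.7 and 46.0 CPM in IgG cells and 36.4, 35.6 and 41.3 in IgM cells, and of Bst2. Bst2 stood at 16.7, 24.2 and 21.8 in IgG cells and 21.2, 21.0 and 30.1 in IgM cells. That filter also drops cells with a heavy chain for these genes, so it does not single out other cell types.

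Tox stood at 61.1, 48.6 and 38.1 in IgG cells, against 28.0, 22.6 and 16.9 in IgM cells. Its folds, 2.18, 2.15 and 2.25, were the most even of the 8 genes across the libraries, although both classes of OVA 1 lay below those of NP 1. Tox was also present in the T cell fraction, at 174, 121 and 135 in 4, 13 and 24 cells. Of the 13 T cell markers, 5, 3 and 4 were detected in IgG cells and 5, 7 and 9 in IgM cells, led by Lat with 26, 47 and 63 UMIs in IgG cells and 25, 21 and 52 in IgM cells. Without cells holding T cell, myeloid or dendritic UMIs the edgeR log2 fold of Tox between the classes was 1.17, against 1.13 with them.

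Lmo2 stood at 92.0, 107 and 104 in IgG cells, against 59.0, 64.0 and 59.1 in IgM cells, with folds of 1.56, 1.67 and 1.76. Serpinf1 was lower throughout, at 19.9, 23.1 and 20.1 in IgG cells, against 11.4, 13.4 and 12.7 in IgM cells. In both genes the IgG and IgM values did not overlap, and the spread between libraries was small: Lmo2 averaged 101 ± 7.95 in IgG cells and 60.7 ± 2.86 in IgM cells, and Serpinf1 21.1 ± 1.80 in IgG cells and 12.5 ± 1.00 in IgM cells (SD, n = 3 libraries each).

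Plpp1 stood at 31.4, 26.9 and 30.6 in IgG cells, against 25.02, 17.0 and 18.3 in IgM cells, with folds of 1.26, 1.58 and 1.67. Parm1 stood at 24.9, 25.2 and 31.9 in IgG cells, against 20.05, 13.6 and 9.04 in IgM cells. Its folds of 1.24, 1.86 and 3.53 spread most widely of the 8 genes, and its IgM level differed more between libraries than its IgG level.

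Fscn1 stood at 53.3, 39.6 and 90.2 in IgG cells, against 39.7, 32.5 and 44.4 in IgM cells, and the 2 groups overlapped across libraries. Tox2 stood at 37.7, 17.4 and 16.5 in IgG cells, against 27.6, 13.6 and 7.44 in IgM cells, and overlapped as well, with NP 1 high in both classes. Their folds were 1.34, 1.22 and 2.03 for Fscn1 and 1.37, 1.28 and 2.22 for Tox2. Plpp1 and Parm1 levels of the classes did not overlap, for Plpp1 by a margin of 26.9 CPM in NP 2 IgG cells, against 25.02 in NP 1 IgM cells.

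**Figure D1:**
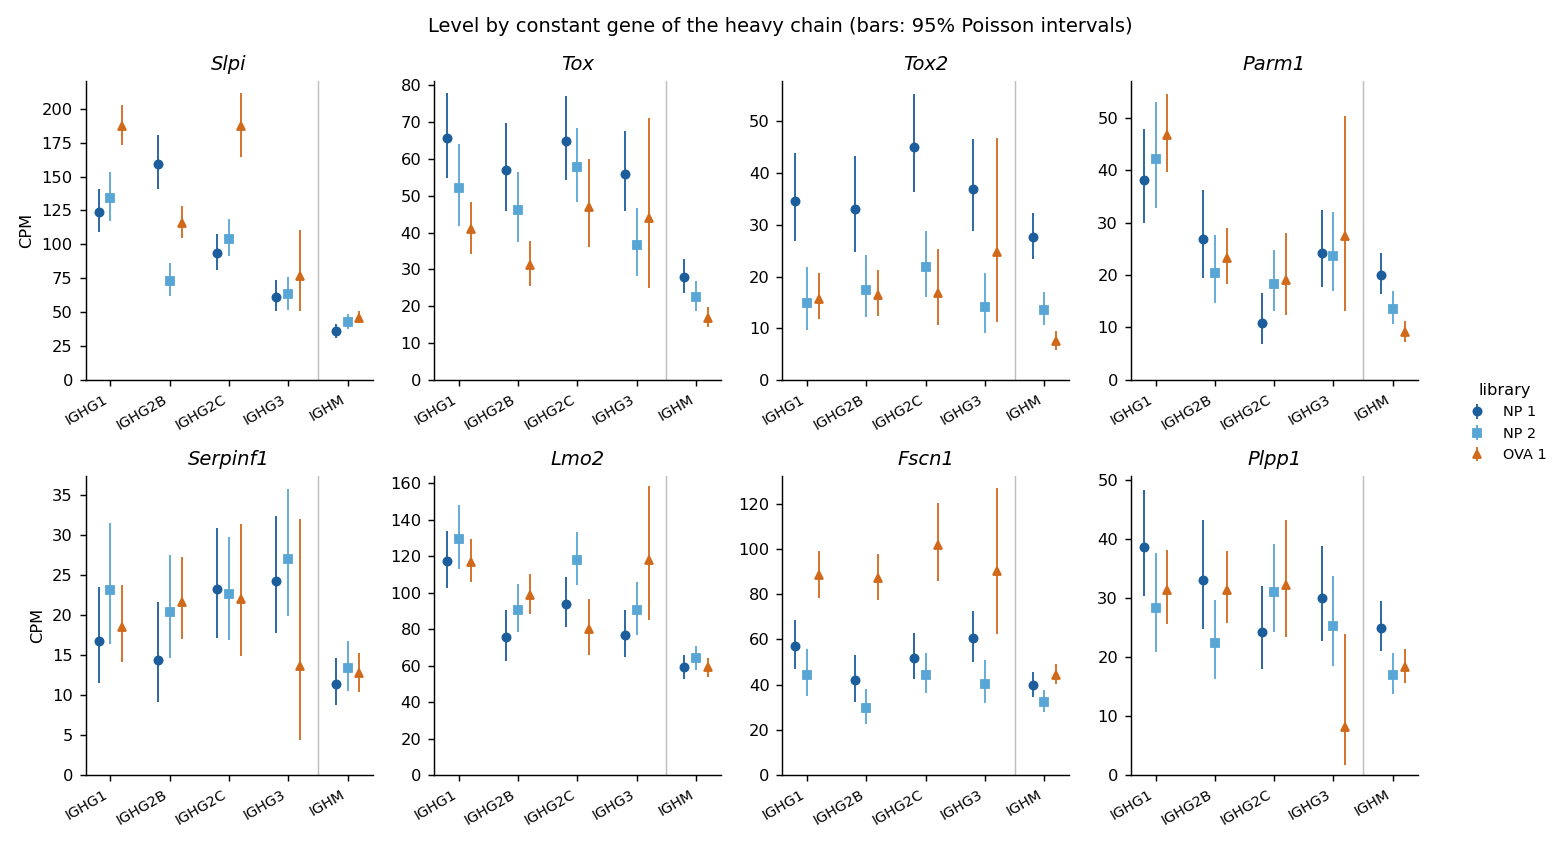
Level of each gene (y axis, CPM) by constant gene of the heavy chain (x axis), with a symbol per library and 95% Poisson intervals that cover counting error only; the line separates the IgG subclasses from IGHM. Parm1 is highest in IGHG1 cells of every library, between 38.1 and 46.6, and Slpi is lowest of the subclasses in IGHG3 cells, between 61.2 and 76.7.

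The IgG subclasses were then compared with each other, which asks whether the genes follow a particular switched isotype. Parm1 was lower in IGHG2C and in IGHG2B cells than in IGHG1 cells, and Slpi was lower in IGHG3 cells than in IGHG1 cells. The other 6 genes were not called in any of the 4 subclass comparisons. These comparisons called few genes at all: 0.0218% of 9161 genes in IGHG2C against IGHG1, with Ly6d as the only other call, 0.0218% in IGHG2B against IGHG1, with Bmyc as the only other, and 0.0109% in IGHG3 against IGHG1, which is Slpi alone. Ly6d and Bmyc were named after their values were seen.

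Parm1 stood at 10.9, 18.2 and 19.1 in IGHG2C cells, against 38.1, 42.0 and 46.6 in IGHG1 cells. The IGHG1 values lay above the IGHG2C values with no overlap. The log2 fold was -1.40 ± 0.18 (SE), with an adjusted p = 3.63e-05 from edgeR's quasi-likelihood test with Benjamini-Hochberg adjustment over all genes. It kept its sign and its call without each library in turn and with DESeq2. The call was lost after thinning (edgeR adjusted p = 0.109) and without the library block (0.0894).

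In IGHG2B cells Parm1 stood at 26.9, 20.4 and 23.2, again below the IGHG1 values of the same libraries. The log2 fold against IGHG1 was -0.90 ± 0.15 (SE; edgeR adjusted p = 0.0197). That call was lost under 5 alternatives and kept under 7: it was lost without NP 2 (edgeR adjusted p = 0.789), without OVA 1 (0.107), with DESeq2 (0.0706), after thinning (0.144) and without the library block. In IGHG3 cells Parm1 stood at 24.3, 23.6 and 27.4, and the log2 fold against IGHG1 was -0.76 ± 0.18 (SE; edgeR adjusted p = 0.173). In IGHM cells it stood at 20.05, 13.6 and 9.04, so that the IGHG2C value of NP 1 lay below the IGHM value of that library.

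Slpi stood at 61.2, 63.0 and 76.7 in IGHG3 cells, against 124, 134 and 187 in IGHG1 cells. The groups did not overlap, and the IGHG3 values still lay above the IGHM values of 35.9, 43.0 and 46.0. The log2 fold of IGHG3 against IGHG1 was -1.11 ± 0.19 (SE; edgeR adjusted p = 0.0185). OVA 1 had 45 IGHG3 cells, with 28 Slpi UMIs. The call was lost without NP 2 (edgeR adjusted p = 0.37), with DESeq2 (0.382), after thinning (0.233) and without the library block. It was also lost without cells holding T cell, myeloid or dendritic UMIs (edgeR adjusted p = 0.0555), and was kept under the other 7 alternatives.

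Slpi stood at 159, 73.3 and 116 in IGHG2B cells and at 93.6, 104 and 187 in IGHG2C cells. The order of the subclasses changed between libraries: IGHG2B was highest of all in NP 1 and below IGHG2C in NP 2 and OVA 1. Slpi in IGHG3 against IGHG2C cells had a log2 fold of -0.86 ± 0.20 (SE; edgeR adjusted p = 0.282). None of the 8 genes was called in that comparison, in which Slpi, Parm1 and Tox had an unadjusted p under 0.05 with edgeR and where 0.0109% of genes were, Ly6d alone.

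Tox stood at 65.6, 52.1 and 40.9 in IGHG1 cells, 56.9, 46.1 and 31.2 in IGHG2B, 64.9, 57.7 and 46.9 in IGHG2C and 55.9, 36.6 and 43.8 in IGHG3 cells. Each of these values lay above the IGHM value of its library, which were 28.0, 22.6 and 16.9. The same held for Slpi, Lmo2, Serpinf1 and Tox2, whereas Parm1 in NP 1 IGHG2C cells, Plpp1 in NP 1 IGHG2C and OVA 1 IGHG3 cells and Fscn1 in NP 2 IGHG2B cells lay below it. Plpp1 in OVA 1 IGHG3 cells, at 8.22, rests on the 45 cells of that group.

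Clones that held both IgM and IgG cells let the classes be compared among cells that share a V gene, a J gene and a CDR3 nucleotide sequence in a library. There were 68, 61 and 68 such clones, with 169, 157 and 220 IgG cells and 203, 151 and 198 IgM cells. The class difference is the one that chose the genes, so these values are a description with no test. Inside mixed clones Slpi stood at 136, 108 and 159 in IgG cells, against 41.9, 57.1 and 75.9 in IgM cells. The folds of 3.25, 1.89 and 2.09 compare with 3.01, 2.34 and 3.93 among cells of all other clones. These folds pool cells over clones, and with each clone weighted equally they were 3.04, 1.89 and 1.89 inside mixed clones. The largest OVA 1 mixed clones, with IGHV1-26 and IGHV2-5, gave 72 and 73 Slpi UMIs of IgG cells. Slpi stood at 348 in 18 IgG cells and 232 in 1 IgM cell of the former. It stood at 254 in 28 IgG cells and 293 in 14 IgM cells of the latter. Of 140 mixed clones with any Slpi UMI, the IgG cells had the higher level in 96 and the IgM cells in 44.

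Tox inside mixed clones stood at 46.6, 46.8 and 36.0 in IgG cells, against 24.1, 19.0 and 22.8 in IgM cells, with folds of 1.93, 2.46 and 1.58. Lmo2 had folds of 1.57, 2.04 and 1.51 and Serpinf1 of 1.45, 2.86 and 1.25. IgG cells had the higher Tox level in 77 of 120 clones with a UMI, the higher Lmo2 level in 99 of 162 and the higher Serpinf1 level in 52 of 83. These 4 genes and Plpp1, with folds of 1.03, 1.48 and 1.56, were higher in the IgG cells of mixed clones in every library.

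Fscn1 and Tox2 were closer to even inside mixed clones. Fscn1 stood at 68.5, 30.6 and 55.6 in IgG cells of mixed clones, against 47.7, 31.0 and 66.0 in their IgM cells, and was higher in the IgG cells of 59 clones and in the IgM cells of 60. The Fscn1 folds were 1.44, 0.986 and 0.842 inside mixed clones and 1.36, 1.27 and 2.63 in other clones. Tox2 had folds of 1.13, 1.04 and 1.02 inside mixed clones and 1.44, 1.37 and 2.79 in other clones. Parm1 was lower in the IgG cells of NP 1 mixed clones, at 18.5 against 22.9 in the IgM cells, and higher in those of NP 2 and OVA 1, with folds of 0.809, 2.88 and 1.74. When each clone was weighted equally, 6 of the 8 genes kept a mean log2 fold above 0, and Tox2 and Fscn1 had means of -0.11 and -0.0064. In OVA 1 the equally weighted folds were 1.02 for Lmo2 and 1.14 for Tox, against 1.51 and 1.58 with cells pooled. Over the 3 libraries Lmo2 had a mean log2 fold of 0.46 against 0.76 and Tox of 0.57 against 0.97 with cells pooled.

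**Figure D2:**
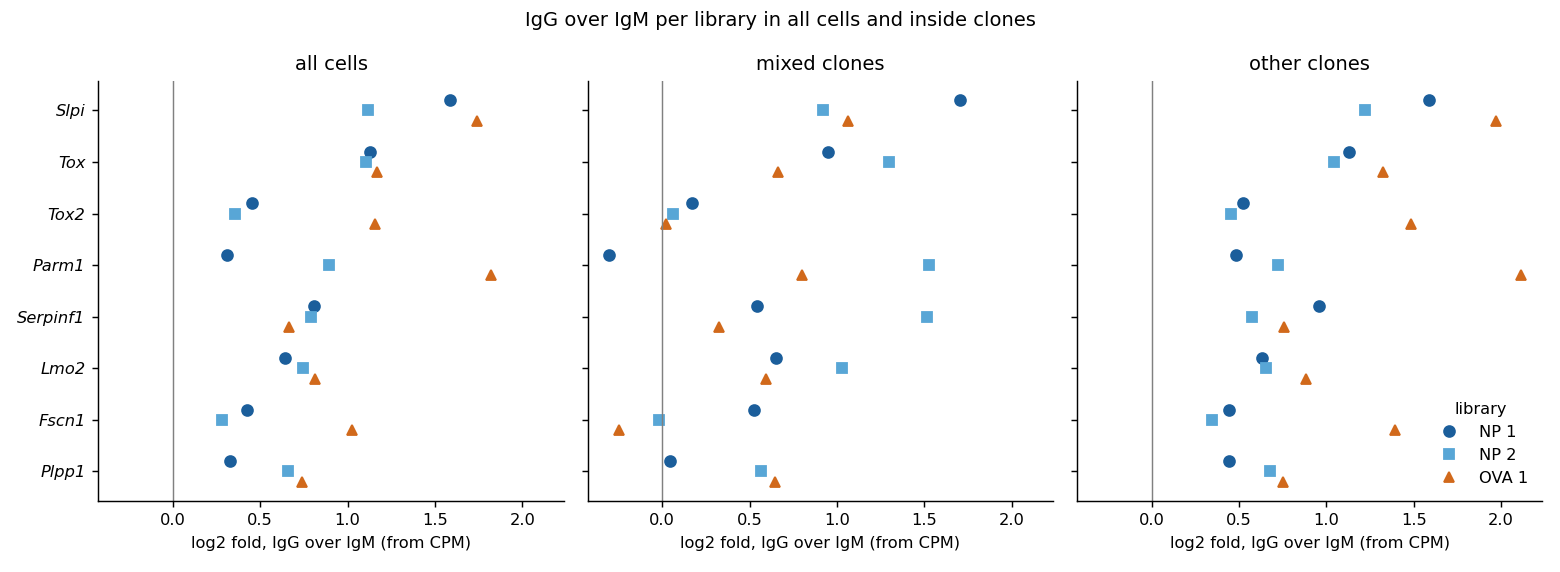
log2 fold of IgG over IgM cells (x axis, from CPM) for each gene (y axis) in all cells, in clones that hold both classes and in other clones, with a symbol per library; the line marks no difference. Slpi, Tox, Serpinf1, Lmo2 and Plpp1 lie above 0 in all 3 libraries inside mixed clones, while Tox2 lies near 0 and Fscn1 and Parm1 lie on both sides.

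Cell states asked whether the genes follow a phase of the germinal center reaction. Within each library and among cells of at least 2500 UMIs, mitotic cells were the top 15% for G2 and M phase genes. Of the others, Cd83-high cells were the top 25% for Cd83 and outside the top 25% for Cxcr4, and Cxcr4-high cells the reverse. The states held 278, 236 and 332 Cd83-high, 237, 203 and 267 mitotic and 278, 236 and 329 Cxcr4-high cells. Sums were fitted per library, class and state, with library and class in the model. In these sums a lower level cannot be told apart from fewer cells with the transcript.

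Against Cxcr4-high cells, Lmo2, Plpp1, Parm1 and Tox were higher in Cd83-high cells, Serpinf1 was lower, and Slpi, Tox2 and Fscn1 were not called. Thus 5 of the 8 genes were called, where 31.5% of all 8524 genes tested were. Lmo2 stood at 136, 142 and 137 in Cd83-high cells, against 52.2, 52.6 and 46.6 in Cxcr4-high cells, with a wide gap between the groups. Its log2 fold was 1.49 ± 0.10 (SE; edgeR adjusted p = 6.73e-18). Plpp1 stood at 49.4, 35.9 and 33.6 in Cd83-high cells, against 20.8, 16.0 and 18.6 in Cxcr4-high cells (log2 fold 1.10 ± 0.16, SE; edgeR adjusted p = 7.28e-08). Neither gene overlapped between the 2 states.

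Parm1 stood at 27.9, 32.8 and 34.0 in Cd83-high cells, against 18.2, 17.4 and 14.0 in Cxcr4-high cells (log2 fold 1.01 ± 0.19, SE; edgeR adjusted p = 2.38e-05). The Parm1 groups did not overlap, and after thinning the edgeR adjusted p was 0.0711. Tox stood at 61.0, 52.9 and 34.8 in Cd83-high cells, against 42.0, 30.7 and 16.7 in Cxcr4-high cells (log2 fold 0.81 ± 0.14, SE; edgeR adjusted p = 2.96e-06). Tox values overlapped across libraries but were higher in the Cd83-high cells of each. The 13 T cell markers summed to 10.5, 13.9 and 11.7 CPM in Cd83-high cells and 3.04, 6.24 and 8.22 in Cxcr4-high cells, and without cells holding T cell, myeloid or dendritic UMIs the log2 fold of Tox was 0.78.

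Serpinf1 went the other way, with 11.6, 11.8 and 8.998 in Cd83-high cells, against 23.3, 25.4 and 25.2 in Cxcr4-high cells. The log2 fold was -1.19 ± 0.19 (SE; edgeR adjusted p = 2.1e-06), without overlap between the states. Slpi stood at 60.5, 45.2 and 81.4 in Cd83-high cells, against 44.6, 68.6 and 89.3 in Cxcr4-high cells, higher in one library and lower in the others (log2 fold -0.089 ± 0.16, SE; edgeR adjusted p = 0.722). Tox2 had a log2 fold of 0.30 ± 0.21 (SE; edgeR adjusted p = 0.304).

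Fscn1 stood at 58.4, 53.9 and 54.8 in Cd83-high cells, against 34.4, 23.6 and 72.1 in Cxcr4-high cells, so that the NP libraries were higher in Cd83-high cells and OVA 1 was lower. Its log2 fold over the 3 libraries was 0.33 ± 0.16 (SE; edgeR adjusted p = 0.123). Without OVA 1 it was 1.00 (edgeR adjusted p = 7.43e-06).

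**Figure D3:**
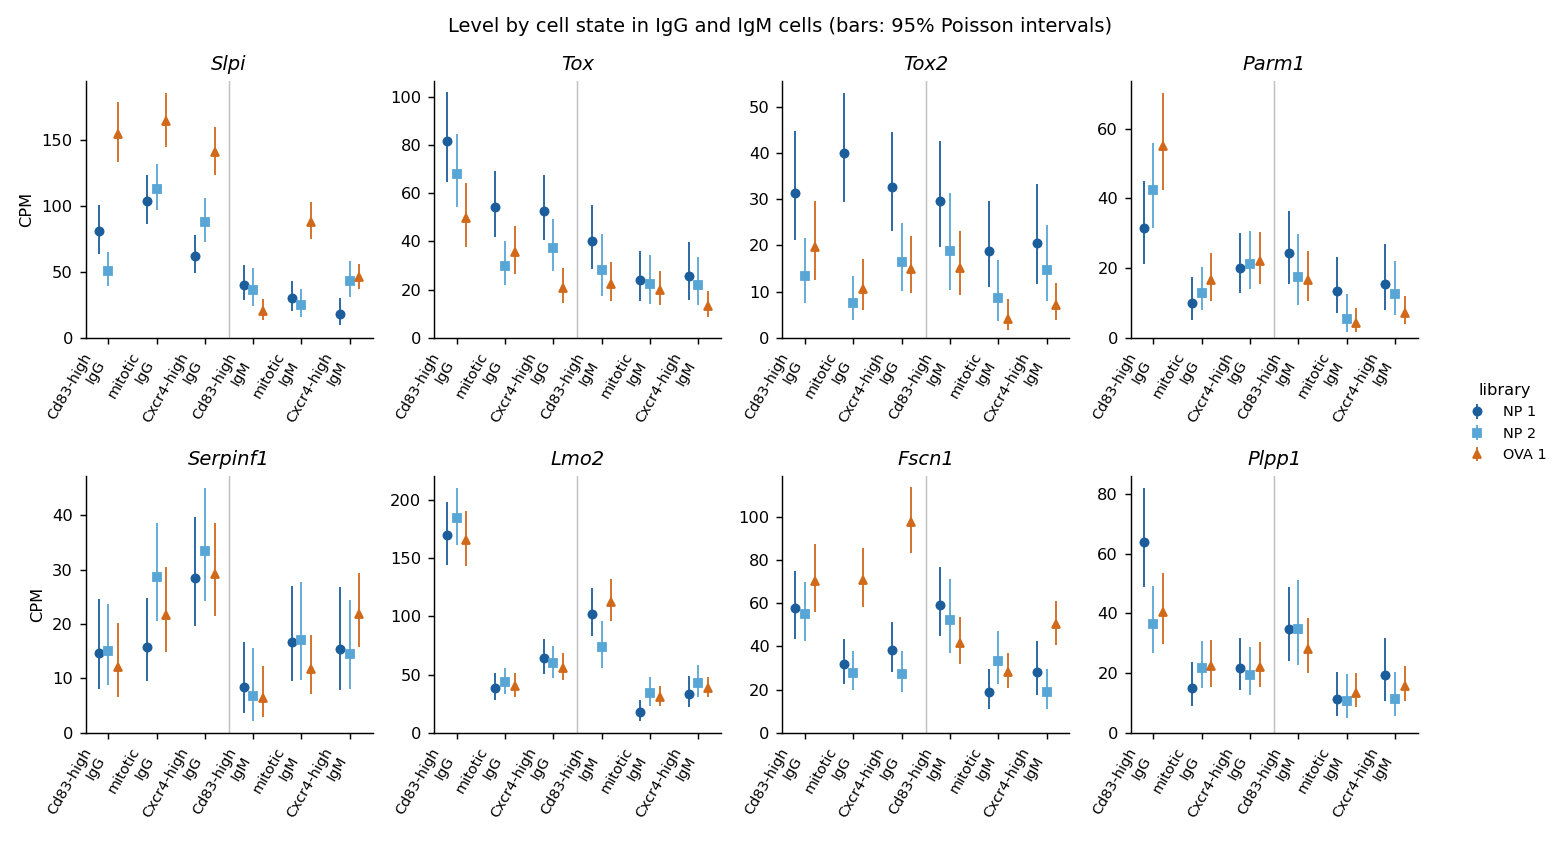
Level of each gene (y axis, CPM) in Cd83-high, mitotic and Cxcr4-high cells (x axis), IgG cells left of the line and IgM cells right of it, with a symbol per library and 95% Poisson intervals for counting error. Lmo2 is highest in Cd83-high cells of both classes, and Serpinf1 is lowest there.

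Against Cxcr4-high cells, mitotic cells had more Slpi and less Lmo2, Parm1 and Serpinf1, which made 4 of 8 genes called, where 26.4% of all genes were. Slpi stood at 70.8, 78.6 and 124 in mitotic cells, against 44.6, 68.6 and 89.3 in Cxcr4-high cells, higher in each library although the groups overlapped. The log2 fold was 0.40 ± 0.14 (SE; edgeR adjusted p = 0.0287). It kept its sign, but the call was lost under 8 alternatives and kept under 6. It was lost without NP 1 (edgeR adjusted p = 0.161), without OVA 1 (0.147), without the library block (0.454), with a stricter cell filter (0.0742), after thinning (0.212), without the 3 largest clones (0.0665), with narrower state cutoffs (0.0779) and with DESeq2 (0.415).

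Lmo2 stood at 29.2, 39.9 and 35.2 in mitotic cells, below its Cxcr4-high value in each library (log2 fold -0.54 ± 0.13, SE; edgeR adjusted p = 0.000703). Parm1 stood at 11.6, 9.98 and 9.88 in mitotic cells (log2 fold -0.66 ± 0.23, SE; edgeR adjusted p = 0.0263), a call that was lost without NP 2 (edgeR adjusted p = 0.154), without the library block (0.0945) and with a stricter cell filter (0.0665). Serpinf1 stood at 16.2, 24.1 and 16.4 in mitotic cells (log2 fold -0.44 ± 0.16, SE; edgeR adjusted p = 0.0418). The Serpinf1 call was lost under 7 alternatives and kept under 6. It was lost without NP 1 or OVA 1, where the log2 fold was -0.40 or -0.26 (edgeR adjusted p = 0.144 or 0.443), with DESeq2 (0.134), without the filter on low counts (0.0674), without the library block (0.161), with narrower state cutoffs (0.141) and without class in the model (0.0786). The other 4 genes had log2 folds of 0.14 ± 0.14 for Tox, -0.21 ± 0.18 for Plpp1, -0.33 ± 0.22 for Tox2 and -0.39 ± 0.17 for Fscn1 (SE).

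Within the states the class folds of Tox, Slpi and Lmo2 were above 1 in every library, while those of other members were not all above 1. The class difference over these cells chose the genes, so the folds are a description and no support. IgG over IgM folds of Tox were 2.04, 2.42 and 2.24 in Cd83-high cells, 2.27, 1.34 and 1.79 in mitotic cells and 2.06, 1.71 and 1.58 in Cxcr4-high cells. Those of Slpi were 2.01, 1.40 and 7.69 in Cd83-high cells, 3.43, 4.60 and 1.87 in mitotic cells and 3.45, 2.06 and 3.07 in Cxcr4-high cells. Those of Lmo2 were 1.66, 2.504 and 1.47 in Cd83-high cells, 2.17, 1.28 and 1.30 in mitotic cells and 1.93, 1.40 and 1.45 in Cxcr4-high cells. Plpp1 folds were also above 1 throughout. The folds below 1 were those of Tox2 in NP 2 Cd83-high (0.709) and mitotic cells (0.877), of Parm1 in NP 1 mitotic cells (0.741), of Serpinf1 in NP 1 mitotic cells (0.953), and of Fscn1 in NP 1 Cd83-high (0.976) and NP 2 mitotic cells (0.844). Some of these folds rest on few UMIs. Tox2 in NP 2 Cd83-high cells had 16 in IgG and 14 in IgM cells, and Parm1 had 25 in IgM mitotic cells of all libraries together. The Slpi fold in Cd83-high cells of OVA 1 came from 155 CPM (180 UMIs) in IgG cells, against 20.1 CPM (28 UMIs) in IgM cells. The difference of the class fold between Cd83-high and Cxcr4-high cells was tested as an interaction: 0.0117% of genes were called with edgeR, Ifi27l2a alone, which was named after its values were seen, and none of the 8. Their log2 differences ran between -0.62 ± 0.42 (Tox2) and 0.27 ± 0.30 (Tox), and these SEs do not show that the class fold was the same in both states.

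Clone size was compared with library and class in the model. Only Lmo2 of the 8 genes was called between cells of clones with at least 2 cells and cells seen once, where 3.83% of all 9744 genes were. Lmo2 stood at 83.1, 92.1 and 86.3 in cells seen once, 75.2, 95.3 and 78.8 in clones of 2 to 4 cells and 70.2, 74.4 and 75.7 in clones of 5 or more. Its log2 fold of expanded over single cells was -0.22 ± 0.060 (SE; edgeR adjusted p = 0.0288). The call was lost under 6 alternatives and kept under 8: it was lost without NP 1 (edgeR adjusted p = 0.141), without OVA 1 (0.406), after thinning (0.113), without class in the model (0.0564), without the library block and without memory or naive-like cells.

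Memory or naive-like cells moved with Lmo2: they held 109.6, 168 and 102 of it, and the 18 memory and naive B cell markers summed to 1101, 1097 and 1357 CPM in expanded cells and 1337, 1202 and 1614 in single cells. Without those cells the Lmo2 log2 fold was -0.14 (edgeR adjusted p = 0.304).

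Serpinf1 stood at 14.2, 18.2 and 11.7 in cells seen once, 15.2, 21.2 and 15.5 in clones of 2 to 4 cells and 22.0, 19.2 and 23.0 in clones of 5 or more. It had a log2 fold of 0.39 ± 0.12 (SE; edgeR adjusted p = 0.0688) for expanded over single cells, and of 0.52 (edgeR adjusted p = 0.019) for clones of at least 5 cells. Serpinf1 was called under 6 alternatives, that one among them, and not under 8. Parm1 had -0.34 ± 0.15 and Slpi 0.14 ± 0.10, and neither was called. By class, Slpi in OVA 1 IgG cells was 162, 156 and 145.1 CPM in clones of 1, 2 to 4 and 5 or more cells, and in OVA 1 IgM cells 24.0, 53.0 and 78.0. An OVA 1 clone with IGHV2-5, holding 14 IgM cells, gave 41 of the 185 UMIs behind the last value. Another clone, of a size not given here, gave more Slpi UMIs. The largest share of a single clone was 11.2% of the 402 Slpi UMIs of all OVA 1 IgM cells. In NP 1 IgM cells the 3 sizes had 38.3, 21.9 and 44.5 and in NP 2 IgM cells 38.5, 42.3 and 56.2, so that NP 1 showed no steady order. No difference between these levels was tested. Tox, Tox2, Fscn1 and Plpp1 had log2 folds between -0.061 and 0.015 for expanded over single cells.

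**Figure D4:**
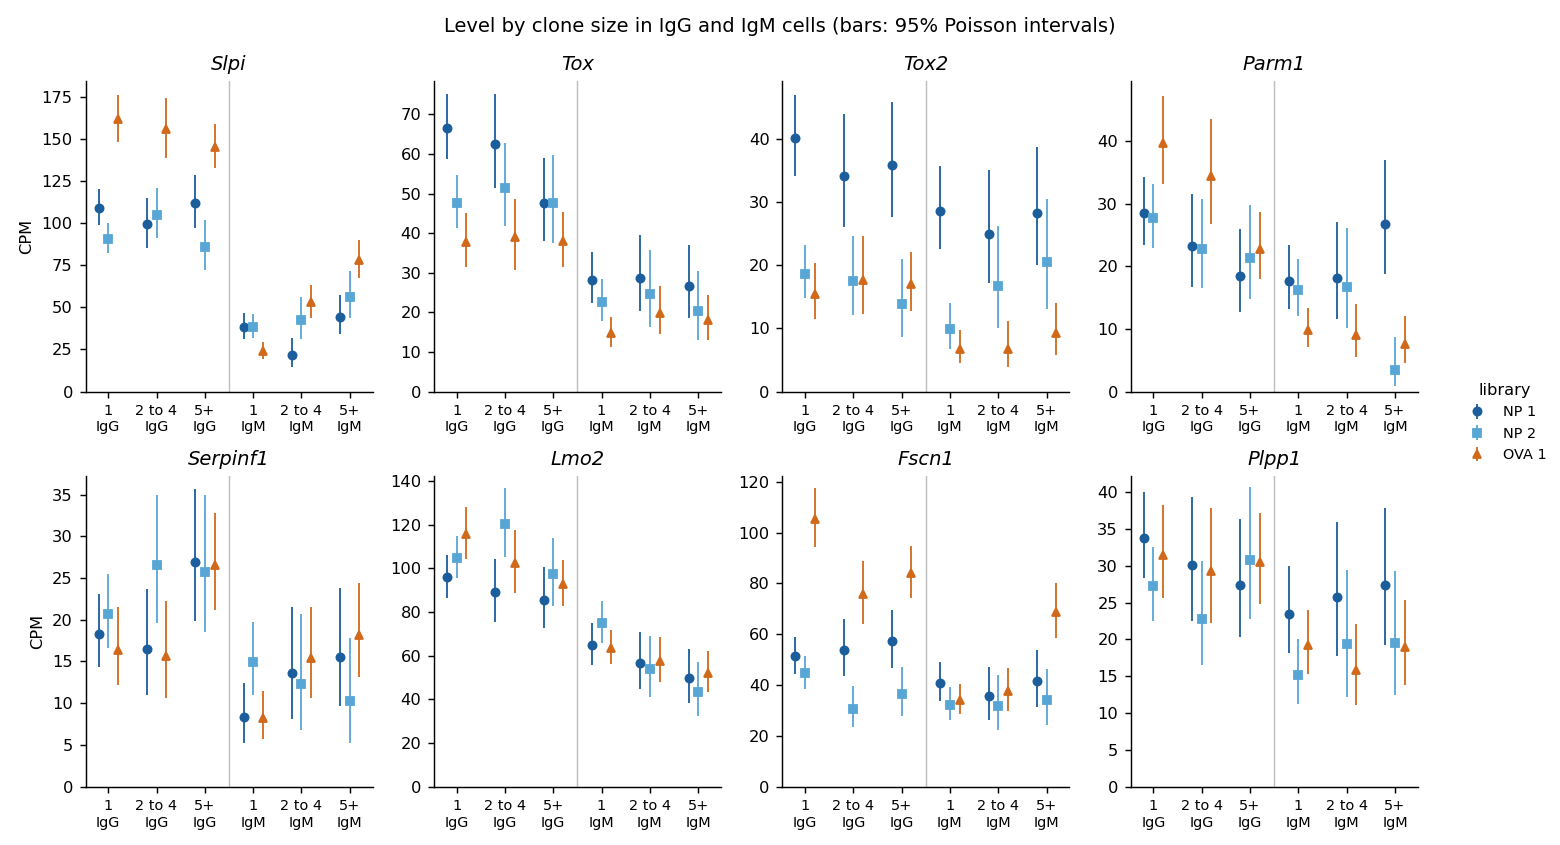
Level of each gene (y axis, CPM) by the number of cells in the clone (x axis), IgG cells left of the line and IgM cells right of it, with a symbol per library and 95% Poisson intervals for counting error. Slpi in IgM cells seen once is 38.3, 38.5 and 24.0 in NP 1, NP 2 and OVA 1, and 44.5, 56.2 and 78.0 in clones of 5 or more cells.

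Between the antigens, with 2 NP libraries and 1 OVA library and thus 1 residual degree of freedom, Tox2 alone of the 8 genes was called, where 1.96% of all 11295 genes were. The sort differed as well, so antigen, gate and library cannot be told apart. Over IgG and IgM cells together Tox2 stood at 33.4 and 15.8 CPM in NP 1 and NP 2, against 11.9 in OVA 1. Both NP libraries lay above OVA 1, but the NP libraries differed from each other by more than NP 2 did from OVA 1. The log2 fold was 1.05 ± 0.29 (SE; edgeR adjusted p = 0.0242). The call was lost with DESeq2, without cells holding T cell, myeloid or dendritic UMIs, without memory or naive-like cells and after thinning. It was kept under 4 alternatives. Without NP 1 or NP 2 the log2 fold was 0.48 or 1.44, with no test. Tox stood at 47.1 and 37.8 in the NP libraries and 27.3 in OVA 1 (log2 fold 0.65 ± 0.26, SE; edgeR adjusted p = 0.242). Fscn1 stood at 47.6 and 36.7 in the NP libraries and 66.9 in OVA 1 (log2 fold -0.65 ± 0.25, SE; edgeR adjusted p = 0.18). The other 5 genes had log2 folds between -0.38 (Slpi) and 0.14 (Serpinf1).

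**Figure D5:**
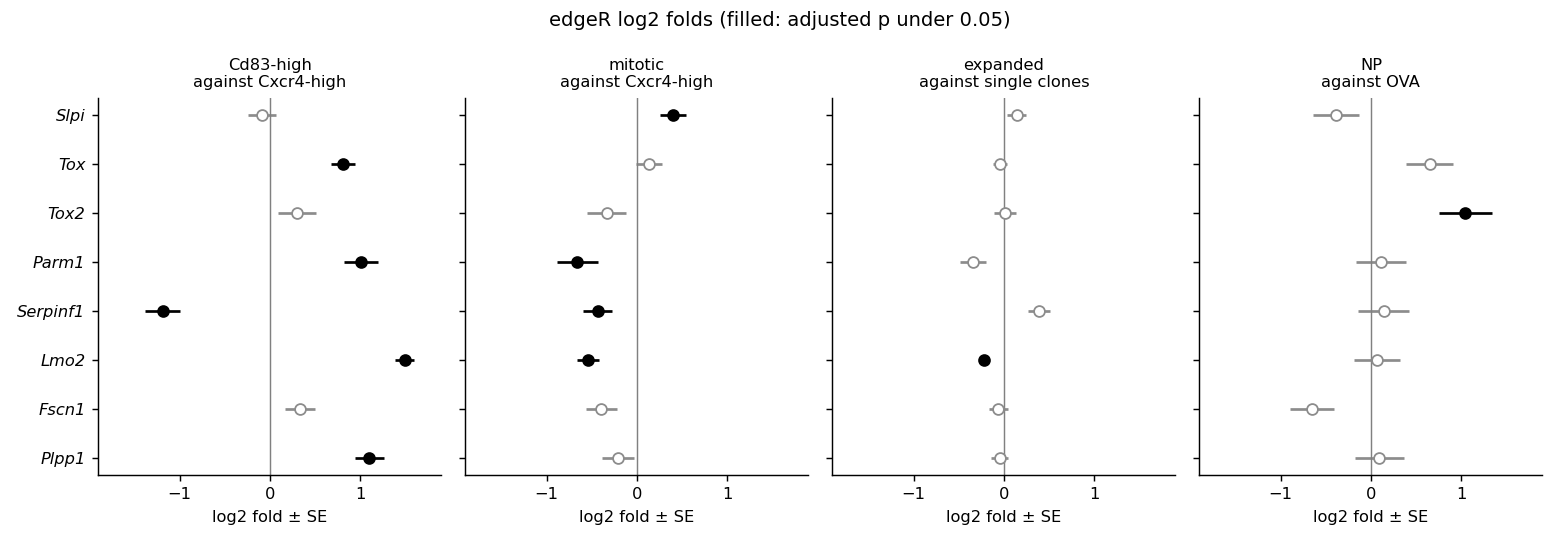
edgeR log2 folds with SE (x axis) of each gene (y axis) in 4 comparisons that did not choose the genes; filled symbols have an adjusted p under 0.05. Lmo2, Plpp1, Parm1 and Tox are higher and Serpinf1 is lower in Cd83-high cells, and Tox2 is the only gene called between antigens.

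The genes were also compared with each other across 56 sums per library, constant gene and state of at least 20 cells, on log2 CPM centred within each library. The points share libraries and depth, so the correlations are descriptions. Lmo2 was most like Lat2 (Pearson r = 0.88), Cd52 (0.88) and Fcer2a (0.87), the gene of the low-affinity IgE receptor. Tox was most like Basp1 (0.74), Lmo2 (0.68) and Traf4 (0.65). Plpp1 followed Ldha (0.70), Nxpe3 (0.70) and Syngr2 (0.70), and Parm1 followed Cd22 (0.69), Ccdc17 (0.65) and Tspan32 (0.65). Serpinf1 was most like Anxa2 (0.69), Rbm38 (0.64) and Lpp (0.63), and had r = -0.29 with Lmo2. Fscn1 was most like Bri3bp (0.61), Lmo2 (0.59) and Snx10 (0.58), Tox2 like Alkbh6 (0.65), Mecr (0.60) and Nbn (0.59), and Slpi like Tkt (0.55), Laptm5 (0.49) and Aacs (0.49). Among the 8 genes, Lmo2 with Tox, Parm1 (0.64) and Plpp1 (0.63) were the closest pairs, whereas Slpi had r = 0.31 with Tox and 0.07 with Tox2.

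Lists of related genes, counted without the 8 genes themselves, were counted between the states and between the classes. Between Cd83-high and Cxcr4-high cells 31.5% of all 8524 genes tested were called in either direction. Of 26 receptor, CD40 and NF-kB response genes, 24 of 25 tested were higher and 1 was lower in Cd83-high than in Cxcr4-high cells, with a median log2 fold of 1.89 against -0.0026 over all genes. Ccnd2, a cyclin, had a log2 fold of 5.03 ± 0.33 and Egr3, an early-response factor, 3.54 ± 0.35 (SE; edgeR adjusted p = 2.99e-18 and 3.41e-12). Of 13 tested IL-4, IL-21 and STAT genes 10 were higher and 1 was lower, with Fcer2a at 1.80 ± 0.079 (edgeR adjusted p = 1.93e-25). Of 11 tested genes in the list of Lmo2 partners, 1 was higher and 6 were lower in Cd83-high cells. That list includes Lmo4, a relative of Lmo2, which had a log2 fold of -1.23 ± 0.13 (SE; edgeR adjusted p = 4.91e-11), opposite in sign to Lmo2.

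Lists around the other members held genes of both directions between these states, where 31.5% of all genes were called. Of 10 tested HMG-box and HMGN genes 1 was higher and 5 were lower in Cd83-high cells. Of 7 tested protease inhibitors 2 were higher and 1 was lower, of 9 lipid phosphate genes 3 and 2, and of 22 cytoskeleton genes 11 and 4. Marcks and Marcksl1, which bind actin, had log2 folds of 2.65 ± 0.19 and 1.29 ± 0.065 (SE; edgeR adjusted p = 1.2e-16 and 8.89e-23). Between the classes 5.13% of all genes were called, and the same lists gave these counts in IgG cells. Of 10 HMG-box and HMGN genes 1 was higher and 3 were lower, and of 11 genes of the Lmo2 partner list 1 was higher and 2 were lower. Of 22 cytoskeleton genes 5 were higher and 2 were lower, and of 8 protease inhibitors none was higher and 1 was lower. None of 14 lipid phosphate genes was called. Lmo4 had a log2 fold of -0.92 ± 0.066 (SE; edgeR adjusted p = 1.98e-09) in IgG against IgM cells. The median log2 folds of these 5 lists lay between -0.02 and 0.05.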

How the data were processed

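The deposited unit was whole-number counts: the authors' table held UMI counts for 14407 genes in 8873 cells, with contig annotations for the heavy chains. Cell Ranger and mm10 are named in the submitters' processing notes, and their versions are not given in the sources used. The genes and lists were chosen with earlier results of these data known. Genes named beyond them were the 3 most like each member and, for lists, examples past the threshold.

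Cells with at least 500 genes and at most 10% mitochondrial UMIs were kept. The 225 immunoglobulin genes were left out of totals. No doublet caller was run; an alternative dropped cells with over 1 productive heavy chain. Counts were added up over the cells of each arm in a library, since cells are not replicates, and tested with edgeR 4.0.16 (TMM, filterByExpr, quasi-likelihood) with the library as a block, because the arms were cells of the same library. Benjamini-Hochberg adjustment ran over all genes at a threshold of 0.05. DESeq2 1.42.0 was an alternative. SEs were derived from the fold and the F statistic. The procedure was tested on simulated data. Thinning to 2500 UMIs and leaving out the 3 largest clones were chosen after seeing the data. Poisson and binomial intervals cover counting error only. The 16 bulk heavy-chain libraries were not used here.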

Additional observations from a re-analysis of the deposited data

Results flagged for a closer look

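In 1 case the NP libraries and OVA 1 differed in the same contrast by a test of the difference itself, which was chosen for testing after seeing the data. The Cd83-high over Cxcr4-high log2 fold of Fscn1 was higher in NP than in OVA 1 by 1.35 ± 0.27 (SE; edgeR adjusted p = 0.0186), where 0.153% of 8524 genes were called. Fscn1 was higher in Cd83-high cells of both NP libraries and lower in those of OVA 1. The call was lost under 3 alternatives, thinning among them, and kept under 5. Without NP 2 the difference was 1.19, and after thinning 1.26 (edgeR adjusted p = 0.365). The 12 myeloid markers summed to 0.526, 0.513 and 22.7 CPM in Cd83-high cells and 5.57, 0 and 33.4 in Cxcr4-high cells of NP 1, NP 2 and OVA 1, and their part in the result was not tested.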

How the results depend on the processing

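The count of genes called moved with the processing, and the cause was not tested. Without the replicate block (the library), IgG against IgM fell to 0 called genes with edgeR, against 538 with it, the 4 subclass comparisons and the class by state difference to 0, expanded against single to 0, Cd83-high against Cxcr4-high to 1476 of 2684 and mitotic to 1026 of 2249. At an unadjusted p under 0.05 those fits without the block had 233 genes in IgG against IgM, 124, 95, 166 and 122 in IGHG2C, IGHG2B and IGHG3 against IGHG1 and IGHG3 against IGHG2C, 114 in the class by state difference and 255 in expanded against single. DESeq2 called 138 genes in IgG against IgM, 1 in IGHG2B against IGHG1, 0 in IGHG3 against IGHG1 (281 at an unadjusted p under 0.05), 2 in IGHG3 against IGHG2C, 186 of 373 in expanded against single and 106 of 221 in NP against OVA. Without a filter on low counts the subclass comparisons had 23, 40, 39 and 19 calls and the class by state difference 3. After thinning the counts were 193 (IgG against IgM), 4 (IGHG2C), 1137 (Cd83-high), 1180 (mitotic), 3 (class by state), 228 (expanded) and 56 (NP against OVA). Without memory or naive-like cells they were 346, 179 and 143 for class, clone size and antigen. Without cells holding T cell, myeloid or dendritic UMIs IGHG2C had 4 and IGHG3 against IGHG1 and the class by state difference 0 (519 and 382 at an unadjusted p under 0.05, edgeR). Stricter cell filters gave 1 (IGHG2B) and 200 (expanded). Leaving out cells with over 1 heavy chain gave 4 (IGHG2B) and 5 (IGHG3 against IGHG1), and leaving out the 3 largest clones 7 and 6.

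Leaving out 1 library at a time gave 173 to 584 calls for IgG against IgM, 2 to 5 for IGHG2C and 0 to 25 for IGHG2B against IGHG1, 0 to 26 for IGHG3 against IGHG1, 1 to 4 for IGHG3 against IGHG2C, 1845 to 2312 for Cd83-high, 1588 to 1800 for mitotic, 0 to 1 for the class by state difference and 92 to 235 for expanded cells. The lowest counts came without NP 1 for class (173), without NP 2 for IGHG2B and IGHG3 (345 and 395 genes at an unadjusted p under 0.05, edgeR) and without OVA 1 for clone size (92). Without NP 1 or NP 2, NP against OVA had no residual degrees of freedom and no count, and the Tox2 log2 fold was 0.48 or 1.44. Inside mixed clones 8 genes had a mean log2 fold above 0, 6 with clones weighted equally and 7 to 8 without 1 library.

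Of the 8 genes, those that changed sign were called in neither setting. In expanded against single clones Tox had a log2 fold of 0.0068 with stricter cells, 0.24 after thinning and -0.10 to 0.070 with 1 library left out. Tox2 had -0.039 with stricter cells, -0.056 without memory or naive-like cells, -0.011 without the largest clones and -0.049 to 0.19 with 1 library left out. Fscn1 had 0.063 for clones of at least 5 cells and -0.10 to 0.0049 with 1 library left out, and Plpp1 0.14 after thinning. In Cd83-high against Cxcr4-high Slpi had 0.11 after thinning and -0.30 to 0.12 with 1 library left out, and Tox2 -0.050 after thinning. In mitotic against Cxcr4-high cells Tox had -0.094 with narrower state cutoffs and -0.11 to 0.30 with 1 library left out. In NP against OVA Lmo2 had -0.018 with stricter cells and -0.062 after thinning, and Parm1 -0.22 after thinning. Parm1 in IGHG3 against IGHG2C had -0.42 after thinning. The class fold chose the 8 genes, so its positive sign under every alternative fitted is a description and no support. Among the groups by constant gene, depth limits OVA 1 IGHG3 cells most, with 28 Slpi UMIs.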
